A study of Homo sapiens with 16 samples.

Results

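The genes described here are 41 members of the integrated stress response and of the amino acid supply it serves, taken by symbol from a count table of 56832 gene names measured in small cell lung cancer cells. All 41 were in the table and passed the filter on low counts that kept 23100 genes. The members were listed by name, with earlier results of these data known. They comprised 6 transcription regulators, 7 feedback and effector genes, 7 amino acid transporter genes, 12 genes of amino acid and folate metabolism, and 9 genes of transfer RNA charging and export. The cells were the human lines H69 and H69M. Each line carried either a lentiviral short hairpin RNA against EIF6 (sheIF6) or a control hairpin (shNTC), so the controls were also transduced cells, and all were grown in RPMI medium with serum. RNA was taken either from the cytoplasmic lysate or from the polysomal part of a sucrose gradient, in a lysis buffer holding cycloheximide. Line, hairpin and fraction gave 8 groups with 2 libraries each, 16 libraries in all. Nothing in the labels says that the numbered libraries came from separate cultures. The p-values then measure no more than the spread between the 2 libraries of a group, pooled over the 8 groups of both lines. That spread may be technical. The labels give neither the sequence of the hairpin nor the number of clones.

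The integrated stress response begins when a kinase (GCN2, PERK, HRI or PKR) phosphorylates the initiation factor eIF2, which lowers translation of most mRNAs while translation of ATF4 mRNA increases. ATF4 protein then pairs with C/EBP family partners and activates genes that import amino acids, synthesise serine, asparagine, glycine and proline, and charge transfer RNAs. The response also makes its own brakes, including TRIB3, which binds ATF4, and PPP1R15A (GADD34), which directs dephosphorylation of eIF2. EIF6, the gene knocked down, encodes an anti-association factor of the large ribosomal subunit.

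Library totals ran from 36005326 to 87269772 counts. NUPR1 and ALDH1L2 were the members with libraries under 1 CPM, NUPR1 having 22 and 20 counts in the cytoplasmic and polysomal libraries of H69M shNTC replicate 2. Levels are CPM, counts scaled to library size with factors from TMM, a method that sets the libraries on a common scale. In H69 the 12 neuroendocrine markers listed summed to 2207 to 4545 CPM, and in H69M to 279 to 757 CPM. The 10 markers of non-neuroendocrine small cell lung cancer summed to 98.5 to 279 CPM in H69 and to 4081 to 6064 CPM in H69M. The 6 fibroblast markers, collagen genes among them, summed to 115 to 511 CPM in H69 and to 10164 to 38441 CPM in H69M, while the 5 leukocyte markers stayed between 1.25 and 6.69 CPM in all libraries. The H69 cytoplasmic controls differed in these markers. The non-neuroendocrine ones summed to 231 CPM in replicate 1 and 102 CPM in replicate 2, and the fibroblast ones to 459 and 175 CPM. In bulk RNA, fewer cells of a type and less RNA per cell cannot be told apart. EIF6 was lower in both sheIF6 libraries than in both shNTC libraries of each line and fraction, with log2 changes of -0.78 and -0.84 in H69 and -0.52 and -1.24 in H69M (cytoplasmic and polysomal). None of the 4 passed (edgeR, adjusted p = 1, 0.956, 0.547 and 0.204).

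ATF4 with a C/EBP partner binds the C/EBP-ATF response element, whose core reads TGATGNAA, with N for any base. The 250 bases before the RefSeq start site were available for 34 of the 41 genes (assembly GRCh38.p14), and this core was sought on both strands. It was found in 4 of the 34, or 11.8%, against 3.14% of 35116 promoters of the same length. Members were listed partly as ATF4 targets, so this share is no separate evidence. The amino acid response element ATTGCATCA was found in 0 of the 34, against 0.216% of all promoters. The stretches holding the TGATGNAA core are shown as a description. All 4 genes were higher in replicate 1 of the H69M controls, described next. So were 39 of the 41 members in cytoplasmic RNA and 38 in polysomal RNA, and the match does not mark the 4 out. Each is written 5′ to 3′ on the gene's strand with the match in capitals. TTGCATCA is the core read from the other strand. A match is a description of the letters and not of a bound factor.
ASNS (chr7:97872433-97872512, minus strand, match 68 to 61 bases before the start): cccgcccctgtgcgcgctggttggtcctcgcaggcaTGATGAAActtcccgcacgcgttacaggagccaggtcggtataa
CHAC1 (chr15:40953226-40953305, plus strand, match 209 to 202 bases before the start): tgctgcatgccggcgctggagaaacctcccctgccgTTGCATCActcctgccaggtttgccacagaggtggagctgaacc
ATF3 (chr1:212565180-212565259, plus strand, match 191 to 184 bases before the start): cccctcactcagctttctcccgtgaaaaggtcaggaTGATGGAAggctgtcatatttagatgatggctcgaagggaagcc
AARS, named AARS1 in RefSeq (chr16:70289650-70289729, minus strand, match 187 to 180 bases before the start): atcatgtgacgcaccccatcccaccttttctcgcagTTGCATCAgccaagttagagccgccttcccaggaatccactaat

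One pair of libraries stood apart from the other 14 in these genes. In shNTC replicate 1 of H69M the 41 members together took 1.44% of all counts in cytoplasmic RNA and 1.81% in polysomal RNA. The other H69M control, replicate 2, stood at 0.501% and 0.633%. The remaining 12 libraries ranged from 0.428% to 0.685%. The map of all members by library shows the 2 columns of that control as the warmest. Its cytoplasmic library had the lowest total of the series, 36005326 counts against 37527469 in replicate 2, and its mitochondrially encoded genes took 2.96% of counts against 4.30% (polysomal 0.330% against 1.31%). Its neuroendocrine markers summed to 354 CPM against 309 CPM in cytoplasmic and 511 against 757 CPM in polysomal RNA, with 6 and 10 of the 12 at least 2-fold lower than in replicate 2. Its fibroblast markers summed to 10164 CPM against 16759 CPM and to 17201 against 37181 CPM. Other pairs showed such differences too. After knockdown in H69M, 6 and 7 of the 12 neuroendocrine markers were at least 2-fold lower in replicate 1. Fibroblast markers there summed to 22631 against 38441 CPM in polysomal RNA. Mitochondrially encoded genes in polysomal RNA of H69 took 0.384% against 0.867% in controls and 0.434% against 1.38% after knockdown. The part of the differences between the H69M controls in the members' levels was not tested.

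**Figure D1:**
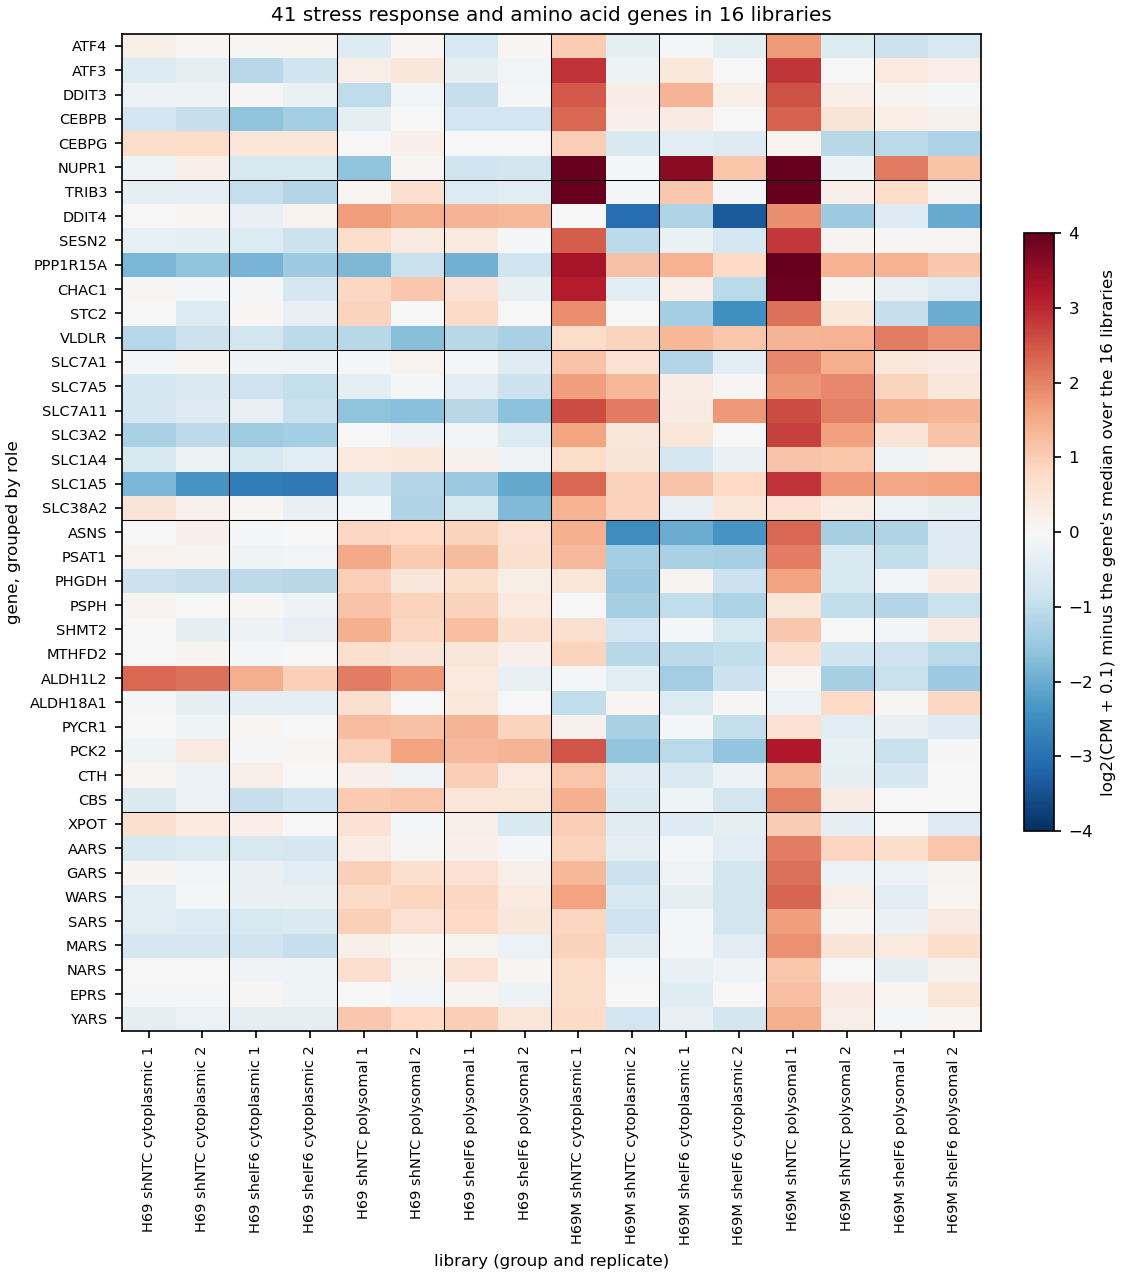
Colour gives the log2 of CPM plus 0.1 of each gene minus that gene's median over the 16 libraries, with columns for the libraries and rows for the 41 genes in 5 role groups parted by lines; colours end at 4 in either direction. The cytoplasmic and polysomal libraries of H69M shNTC replicate 1 are high in most rows, and replicate 2 of the same groups is not.

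Among the 41 members, 39 were higher in replicate 1 than in replicate 2 of the H69M shNTC cytoplasmic pair and 38 in the polysomal pair. The median log2 difference was 1.58 in cytoplasmic and 1.49 in polysomal RNA. A 2-fold or larger excess in replicate 1 was seen for 31 members in cytoplasmic RNA, where 13.8% of all genes tested had one, and for 33 members in polysomal RNA, where 13.6% did. ALDH18A1, which begins proline synthesis from glutamate, went the other way in both fractions, at 52.0 CPM in replicate 1 and 109 CPM in replicate 2 of the cytoplasmic pair. In the other 6 groups the median difference between the numbered libraries lay between -0.02 and 0.41. With 2 libraries in a group there is no test of either one against the other.

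**Figure D2:**
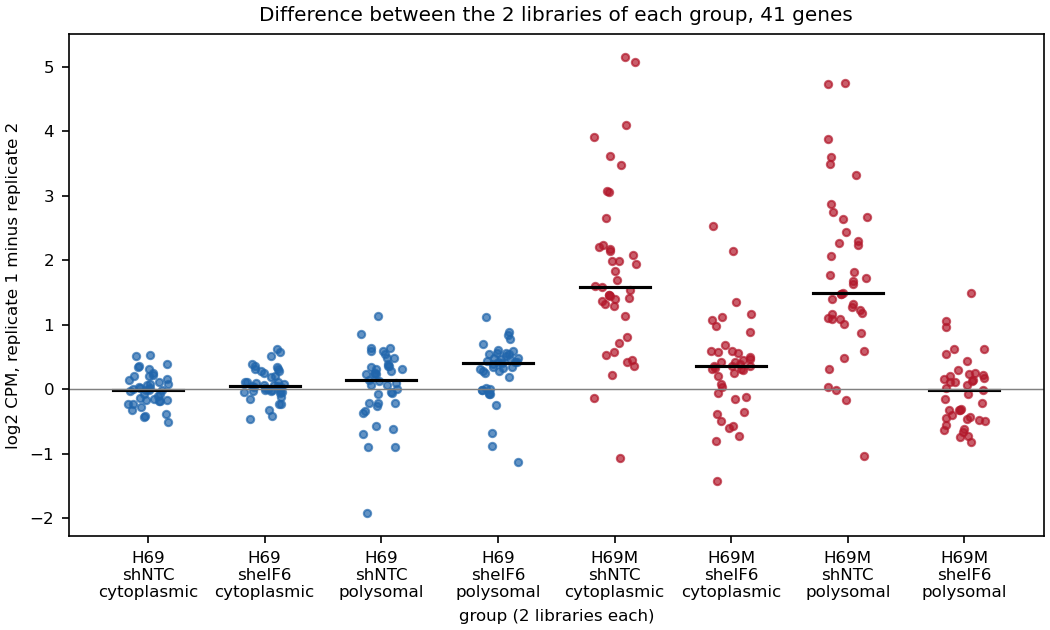
Each point is 1 of the 41 genes and gives the log2 CPM of replicate 1 minus that of replicate 2 in the group named on the horizontal axis; black bars are medians, blue is H69 and red is H69M. The medians are 1.58 and 1.49 in the 2 H69M shNTC groups and between -0.02 and 0.41 in the other 6.

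All 6 regulators were 2-fold or more higher in H69M shNTC replicate 1 than in replicate 2 in both fractions. ATF4 itself stood at 422 CPM in replicate 1 and 161 CPM in replicate 2 in cytoplasmic RNA, and at 688 and 143 CPM in polysomal RNA. Of all 16 libraries these values of replicate 1 were the highest, since the other 14 lay between 117 and 249 CPM. DDIT3 (CHOP), the pro-apoptotic partner of C/EBP proteins, had 139 and 30.8 CPM in cytoplasmic RNA and 148 and 30.2 CPM in polysomal RNA. ATF3 had 120 and 14.2 CPM, then 118 and 16.1 CPM. NUPR1, a small stress-induced chromatin protein, had 20.8 and 0.58 CPM, then 14.5 and 0.504 CPM. In H69 no library exceeded 0.72 CPM of NUPR1.

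The feedback and effector genes showed the widest gaps, with a median log2 difference between the H69M controls of 3.06 in cytoplasmic RNA and 2.74 in polysomal RNA. TRIB3 was 35.8-fold higher in replicate 1 in cytoplasmic RNA, at 599 against 16.7 CPM, and 26.9-fold higher in polysomal RNA, at 545 against 20.3 CPM. No other library of the series held more than 37.3 CPM of TRIB3. CHAC1, which degrades glutathione, had 35.1 and 2.82 CPM in cytoplasmic RNA and 60.5 and 4.05 CPM in polysomal RNA. SESN2, a leucine-sensing inhibitor of mTORC1, had 78.8 and 7.07 CPM in cytoplasmic RNA and 105 and 15.7 CPM in polysomal RNA. PPP1R15A had 689 and 157 CPM, then 1121 and 180 CPM. VLDLR, a lipoprotein receptor gene, was the exception, at 67.4 and 74.5 CPM and then at 104 and 105 CPM.

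Genes of synthesis and charging followed the same division between the H69M controls, and the transporters did so least. ASNS, asparagine synthetase, had 309 CPM in replicate 1 and 20.5 CPM in replicate 2 of cytoplasmic RNA, a 15.1-fold gap, and 559 and 46.1 CPM in polysomal RNA. PCK2, the mitochondrial phosphoenolpyruvate carboxykinase, had 187 and 10.9 CPM, then 301 and 26.8 CPM. PSAT1, of serine synthesis, had 339 and 54.1 CPM, then 581 and 90.9 CPM. The synthesis group had a median log2 difference of 1.77 and 1.58, with 10 and 11 of 12 genes 2-fold or more higher in replicate 1. The charging and export group had 1.47 and 1.31, with 7 and 8 of 9; GARS, glycyl-tRNA synthetase, had 486 and 105 CPM in cytoplasmic RNA. Among the 7 transporter genes 2 were 2-fold or more higher, SLC3A2 and SLC1A5, and the group's median was 0.54 and 0.49. SLC7A5, the large neutral amino acid carrier known as LAT1, stood at 799 and 625 CPM in cytoplasmic RNA and at 850 and 959 CPM in polysomal RNA, so its order turned between fractions.

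Most of the remaining members were also higher in replicate 1. CEBPB had 128 and 30.1 CPM in the H69M cytoplasmic controls and CEBPG 163 and 54.4 CPM. DDIT4 (REDD1), an mTORC1 inhibitor, had 130 and 15.5 CPM in cytoplasmic RNA and 461 and 46.1 CPM in polysomal RNA. In H69, DDIT4 lay between 101 and 409 CPM in all 8 libraries, so H69M replicate 2 was low there and replicate 1 was within or just over that range. PHGDH, the first enzyme of serine synthesis, had 325 and 84.7 CPM, and MTHFD2, a mitochondrial folate enzyme, 255 and 64.1 CPM. SHMT2 had 446 and 167 CPM, PSPH, the last enzyme of serine synthesis, 49.4 and 19.8 CPM, and PYCR1, of proline synthesis, 182 and 66.2 CPM. In cytoplasmic RNA the charging enzymes with the widest gaps were WARS, at 478 and 102 CPM, and GARS, given above, and in polysomal RNA GARS led, at 885 and 163 CPM. The gap in cytoplasmic RNA was narrowest for EPRS, at 294 and 179 CPM, and NARS, at 550.2 and 314 CPM. For most of these metabolic genes H69M replicate 2 was also under both H69 controls, as with PHGDH at 129 and 123 CPM and PSPH at 53.7 and 51 CPM in H69.

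Lists of neighbouring pathways give the extent of this difference between the H69M controls. Of 17 tested genes commonly linked to ATF4 outside the 41, 16 were higher in replicate 1 in each fraction, with a median log2 difference of 1.27 and 1.32. GDF15, a secreted stress cytokine, had 503 and 6.22 CPM in cytoplasmic RNA and 777 and 27.6 CPM in polysomal RNA. ADM2, a peptide hormone gene, had 49.6 and 2.19 CPM in cytoplasmic RNA. The 18 chaperone and unfolded protein response genes had medians of -0.54 and -0.12, with 4 and 8 higher in replicate 1. GDF15, ADM2 and HSPA5 were singled out after their values were seen. HSPA5 (BiP), the main chaperone of the endoplasmic reticulum, stood at 1415 and 1550 CPM in cytoplasmic RNA. The 16 targets of the oxidative stress factor NRF2 had medians of -0.25 and -0.16. The 12 other cytosolic tRNA synthetases had -0.09 and -0.07, with CARS, IARS and TARS 2-fold or more higher, and the 17 mitochondrial synthetases had -0.40 and -0.22. The eIF2 kinases and their partners, 15 tested, had -0.09 and 0.05 with none changed 2-fold.

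After knockdown of EIF6 in H69M, fitted values were negative for 39 of the 41 members in each fraction. Of the 23100 genes tested 11335 and 11777 were negative (cytoplasmic and polysomal). Against control replicate 2 alone only 13 and 25 members were negative. Among the 7 amino acid transporter genes, 5 lay under both controls in cytoplasmic RNA and all 7 in polysomal RNA. Of all 41 members 8 and 17 did, and of all genes 19.3% and 16.7%. In cytoplasmic RNA the share of the members was thus near that of all genes. The transporter exceptions were SLC3A2 and SLC1A5, whose cytoplasmic values overlapped those of control replicate 2. SLC7A1, the cationic amino acid carrier for arginine and lysine, had 318 and 214 CPM in the cytoplasmic controls and 62.9 and 104 CPM after knockdown, so the groups did not overlap. It fell by 1.67 on the log2 scale (SE 0.287), 3.18-fold, and was the only member to pass in cytoplasmic RNA (edgeR, adjusted p = 0.0479). Across the genes tested 0.0649% passed as lower, 0.0909% as higher and 0.156% in either direction. In polysomal RNA SLC7A1 had 545 and 388 CPM in controls and 194 and 180 CPM after knockdown, a log2 change of -1.32 (SE 0.284, adjusted p = 0.157). The cytoplasmic call was lost in 14 of 18 fits that left libraries out, with log2 values of -2.07 to -1.34.

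No member passed in polysomal RNA of H69M (edgeR; 18 members had an unadjusted p under 0.05), where 0.0649% of the genes tested passed, 0.0346% as lower and 0.0303% as higher. SLC7A5 had 799 and 625 CPM in the cytoplasmic controls and 309 and 260 CPM after knockdown, a log2 change of -1.32 (SE 0.240, edgeR adjusted p = 0.0574). In polysomal RNA it had 850 and 959 CPM, then 470 and 347 CPM (log2 -1.15, SE 0.239, edgeR adjusted p = 0.145). SLC1A4, a carrier of alanine and serine, had 94.3 and 80.7 CPM against 35.5 and 46.6 CPM in cytoplasmic RNA, and 125 and 123 CPM against 50.5 and 62.4 CPM in polysomal RNA. Its log2 changes were -1.09 (SE 0.227) and -1.14 (SE 0.227), with edgeR adjusted p = 0.0988 and 0.117. The controls of these genes agreed within 1.5-fold, unlike those of most members. With the replicate number as a block within each line, 4 members passed in cytoplasmic RNA (1.16% of all genes) and 3 in polysomal RNA (0.879%). In that fit the adjusted p was 0.0207 and 0.0595 for SLC7A1, 0.0175 and 0.0394 for SLC7A5, and 0.0354 and 0.0387 for SLC1A4.

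STC2, a secreted glycoprotein hormone gene induced by the stress response, was low after knockdown relative to either control, and had the most negative change of all members against control replicate 2. It stood at 822 and 232 CPM in the cytoplasmic controls and at 88.2 and 42.1 CPM after knockdown. In polysomal RNA it stood at 1044 and 307 CPM and then at 120 and 57.8 CPM. Its log2 changes were -3.02 (SE 0.728) and -2.93 (SE 0.725), with edgeR adjusted p = 0.175 and 0.214. With the block they were -2.84 and -2.76, with adjusted p = 0.00112 and 0.00296. Fitted against control replicate 1 alone the changes were -3.65 and -3.56, and against replicate 2 alone -1.83 and -1.78.

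The choice of control set the sign for many other members, more of them in cytoplasmic than in polysomal RNA. Against control replicate 1 alone, the members' median log2 change in H69M was -1.44 in cytoplasmic RNA and -1.59 in polysomal RNA. Against replicate 2 alone it was 0.14 and -0.05. A fit with 1 H69M control library has no spread within that control group. Its p-values rest on the spread within other groups. The counts of passing members that follow therefore carry no measure of how far the controls differ. In the fits with replicate 1 alone, 17 members passed as lower in cytoplasmic RNA (0.561% of all genes) and 23 in polysomal RNA (0.706%). With replicate 2 alone none passed (edgeR; 7 and 5 members had an unadjusted p under 0.05; 0.0729% and 0.0243% of all genes passed). The sign of the change differed between the 2 controls for 28 members in cytoplasmic and 16 in polysomal RNA. Negative values against both were found for 12 and 24 members, and VLDLR alone was positive against both in each fraction.

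**Figure D3:**
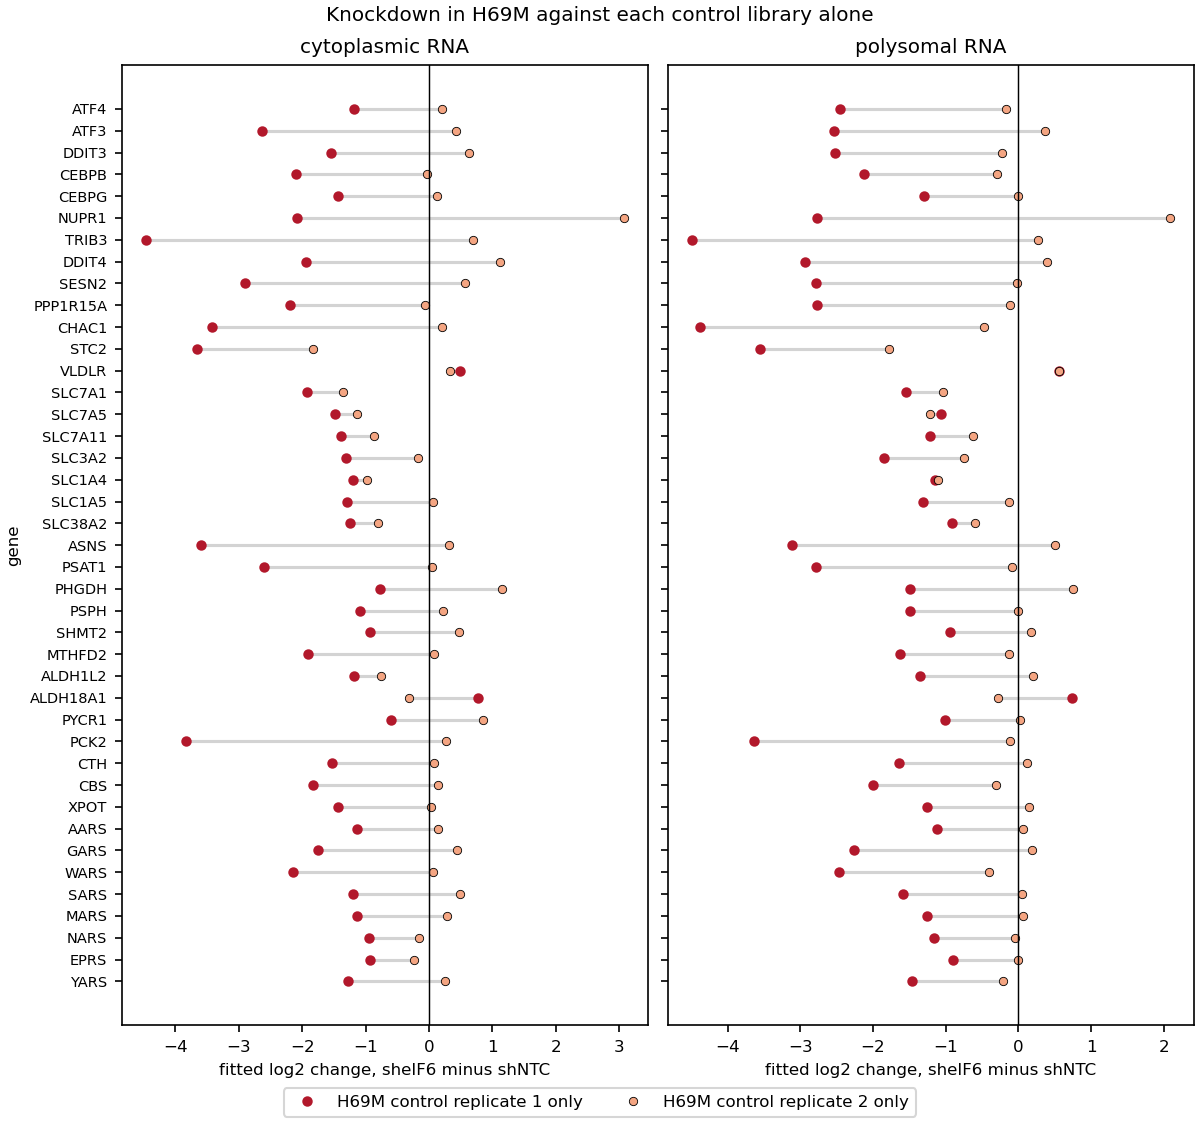
For each of the 41 genes, points give the fitted log2 change after EIF6 knockdown in H69M when only control replicate 1 (dark) or only control replicate 2 (light) is used, in cytoplasmic (left) and polysomal RNA (right). The points of SLC7A1, SLC7A5, SLC1A4 and STC2 lie left of 0 with either control, and those of TRIB3 and ASNS lie on both sides.

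TRIB3 shows the dependence at its largest. After knockdown it had 37.3 and 16.7 CPM in cytoplasmic RNA and 29.4 and 19.0 CPM in polysomal RNA, which is close to control replicate 2 and far under replicate 1. Its fitted change was -3.51 with both controls (SE 1.47, edgeR adjusted p = 0.420), -4.46 with replicate 1 alone and 0.69 with replicate 2 alone. ASNS had 28.9 and 22.1 CPM after knockdown in cytoplasmic RNA, against 309 and 20.5 CPM in the controls. Its change was -3.59 with replicate 1 alone and 0.31 with replicate 2 alone. ATF4 had 204 and 165 CPM after knockdown in cytoplasmic RNA, between the 2 controls, and 117 and 135 CPM in polysomal RNA, under both (edgeR adjusted p = 0.734 and 0.459).

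**Figure D4:**
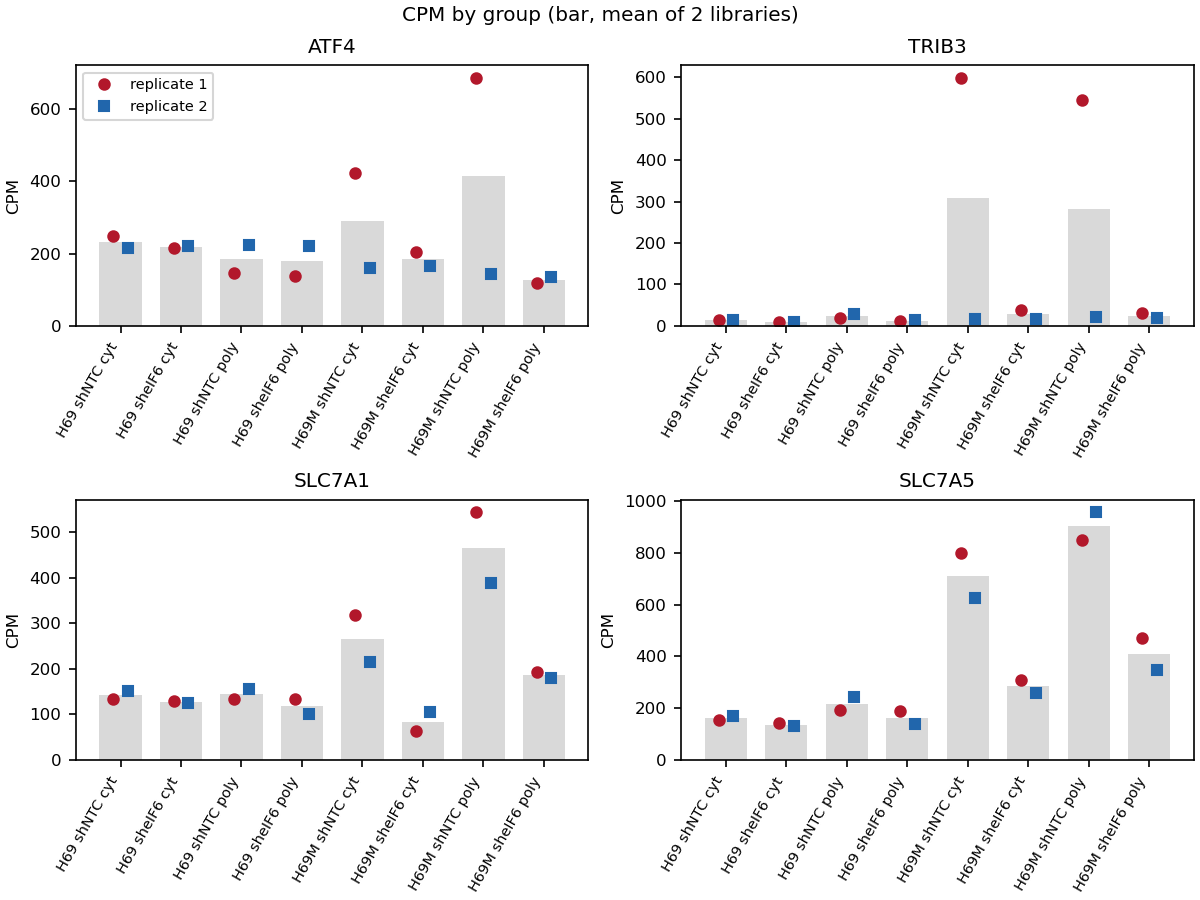
Bars give the mean CPM of 2 libraries per group on a linear axis from 0, circles replicate 1 and squares replicate 2, for ATF4, TRIB3, SLC7A1 and SLC7A5. In H69M the 2 shNTC points are far apart for ATF4 and TRIB3, while for SLC7A1 and SLC7A5 both shNTC points stand above both sheIF6 points.

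In the 6 neighbouring lists no gene passed after knockdown in either line or fraction (edgeR). The 17 other ATF4-linked genes had medians of -0.74 and -0.70 in H69M, with 4 of unadjusted p under 0.05 in each fraction, and the unfolded protein response genes had -0.37 and -0.44.

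Counts of members without overlap between knockdown and control can be set against the background of all genes. In H69M, 8 members were under both controls in each knockdown library in cytoplasmic RNA, a share near the 19.3% of all genes. The 8 were STC2, SLC7A1, SLC7A5, SLC7A11, SLC1A4, SLC38A2, ALDH1L2 and NARS, of which 5 are transporters. Whether transporters were more frequent among them than among all members was not tested. In polysomal RNA 17 members were under both controls, against 16.7% of all genes. Among them were all 7 transporter genes, ATF4, DDIT3, CEBPB, SESN2 and CHAC1. SLC7A11, the cystine and glutamate exchanger, had 206 and 142 CPM in the cytoplasmic controls and 42.6 and 114 CPM after knockdown (log2 -1.15, SE 0.395, edgeR adjusted p = 0.328). SLC3A2, the heavy chain that pairs with SLC7A5 and SLC7A11, had 2222 and 1045 CPM in the polysomal controls and 484 and 746 CPM after knockdown (log2 -1.41, SE 0.406, edgeR adjusted p = 0.315). VLDLR was the 1 member higher without overlap in each fraction, where 20.4% and 16.5% of all genes were, at 101 and 87.2 CPM after knockdown in cytoplasmic RNA and 164 and 142 CPM in polysomal RNA (edgeR adjusted p = 0.543 and 0.556).

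No member passed after EIF6 knockdown in H69, in either fraction (edgeR; unadjusted p under 0.05 for 0 members in cytoplasmic and 1 in polysomal RNA; DESeq2 also called 0). Over all genes 0% and 0.00433% passed. The members' median log2 change was -0.15 in cytoplasmic and -0.22 in polysomal RNA, where that of all genes was -0.01 and 0. The polysomal median was -0.44 without sheIF6 replicate 1 and -0.09 without sheIF6 replicate 2. In each fraction 34 of 41 members had a negative value, as did 11787 and 11456 of the 23100 genes tested. The knockdown libraries lay under both controls for 23 members in cytoplasmic RNA (17.6% of all genes) and for 13 in polysomal RNA (11.3%). CTH, of cysteine synthesis, was the 1 member higher without overlap, in polysomal RNA (11.4% of all genes), and none was in cytoplasmic RNA (16.7%).

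SLC1A5, the glutamine carrier ASCT2, had 40.6 and 28.5 CPM in the H69 cytoplasmic controls and 20.9 and 20.0 CPM after knockdown. In polysomal RNA it had 84.0 and 64.4 CPM, then 51.7 and 35.1 CPM. Its log2 changes were -0.76 (SE 0.432) and -0.78 (SE 0.431), each with edgeR adjusted p = 1. ALDH1L2, a mitochondrial folate enzyme, had 5.37 and 4.31 CPM in the polysomal controls and 1.62 and 0.975 CPM after knockdown, a log2 change of -1.90 (SE 0.558, edgeR adjusted p = 0.658). CEBPB had 15.3 and 13.8 CPM in the cytoplasmic controls and 8.44 and 9.95 CPM after knockdown (log2 -0.66, SE 0.587, edgeR adjusted p = 1). ATF4 did not part the groups, with 249 and 216 CPM in controls and 216 and 221 CPM after knockdown in cytoplasmic RNA.

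How far the knockdown change of H69M departed from that of H69 was tested directly, and it passed for no member in either fraction (edgeR; 4 and 6 members had an unadjusted p under 0.05; DESeq2 also called 0). All genes gave 0.0303% in cytoplasmic RNA (0.013% as higher and 0.0173% as lower in H69M) and 0.00433% in polysomal RNA. For STC2 that difference was -3.14 (SE 0.976) and -2.83 (SE 0.972) on the log2 scale, with edgeR adjusted p = 0.768 and 0.756. With the block it was -2.98 and -2.68, with adjusted p = 0.0093 and 0.0196, and STC2 was then the 1 member to pass (0.139% and 0.16% of all genes). In H69, STC2 had 225 and 157 CPM in the cytoplasmic controls and 236 and 180 CPM after knockdown. For SLC7A1 the difference between lines was -1.51 (SE 0.398, edgeR adjusted p = 0.519) in cytoplasmic RNA. Its H69 levels were 134 and 152 CPM in controls and 130 and 126 CPM after knockdown. Counts from fits with 1 H69M control library, given next, carry no measure of the spread between the H69M controls. With H69M control replicate 1 alone 7 members passed as lower in each fraction (0.0929% and 0.105% of all genes), and with replicate 2 alone none did (0% and 0.00405%).

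Between the control lines, amino acid transporter genes made up much of the members that passed. In cytoplasmic RNA 10 members were higher in H69M and 1 lower, where 16.2% and 14.1% of all genes were. In polysomal RNA 12 were higher and 1 lower, against 18.4% and 15.6%. These shares of the members, 11 and 13 of 41, are near the background of 30.2% and 34% in either direction. By role, 6 of 7 transporter genes were higher in each fraction, and none of the 12 synthesis genes was. ALDH1L2 was the 1 member lower in H69M, at 1.17 and 0.87 CPM against 6.30 and 5.96 CPM in cytoplasmic RNA (log2 -2.58, SE 0.573, edgeR adjusted p = 0.00442).

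SLC1A5 had 711 and 276 CPM in the H69M cytoplasmic controls and 40.6 and 28.5 CPM in H69, 14.3-fold higher (log2 3.84, SE 0.479, edgeR adjusted p = 7.83e-05). SLC7A11 had 206 and 142 CPM against 21.1 and 23.8 CPM in cytoplasmic RNA, 7.75-fold higher, and 206 and 138 CPM against 11.2 and 10.6 CPM in polysomal RNA, 15.8-fold higher (edgeR adjusted p = 0.000207 and 3.32e-05). SLC7A5 had 799 and 625 CPM against 154 and 169 CPM (log2 2.14, SE 0.246, edgeR adjusted p = 4.18e-05). SLC3A2 had 1003 and 457 CPM against 138 and 162 CPM (log2 2.29, SE 0.417, edgeR adjusted p = 0.00123). For all these transporters both H69M libraries exceeded both of H69. PPP1R15A had 689 and 157 CPM against 19.3 and 22.7 CPM (log2 4.33, SE 0.888, edgeR adjusted p = 0.00349), and VLDLR had 67.4 and 74.5 CPM against 18 and 21.8 CPM (log2 1.83, SE 0.235, edgeR adjusted p = 9.38e-05).

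With either H69M control alone, 17 members had a positive value in cytoplasmic RNA and 2 a negative one, and 22 changed sign. In polysomal RNA the numbers were 15, 4 and 22. The share of all genes was not taken, so these numbers are no result about the members. Among those positive with either control in both fractions were CEBPB, PPP1R15A, VLDLR and the transporter genes, and ALDH1L2 was negative. ASNS, PSAT1, MTHFD2 and PCK2 were among those that changed sign in cytoplasmic RNA, and ASNS, PCK2 and GARS in polysomal RNA. For ASNS, H69 held 116 and 131 CPM in cytoplasmic RNA. The fitted difference was 1.32 with H69M replicate 1 alone and -2.57 with replicate 2 alone. In cytoplasmic RNA TRIB3 passed with both controls in the fit (log2 4.50, SE 1.54, edgeR adjusted p = 0.0485). Its log2 value was 5.46 with replicate 1 alone and 0.32 with replicate 2 alone. The single-control counts that follow carry no measure of the spread between the H69M controls. With replicate 1 alone 28 members were higher in cytoplasmic RNA (13.5% of all genes) and 1 lower (11.1%), and with replicate 2 alone 8 were higher (12.2%) and 9 lower (9.71%). In polysomal RNA 24 were higher (15.3%) and 1 lower (13.4%) with replicate 1 alone, and 7 higher (13%) and 12 lower (9.83%) with replicate 2 alone. The block raised the number called to 20 in cytoplasmic and 21 in polysomal RNA, where 35.8% and 39.7% of all genes passed.

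**Figure D5:**
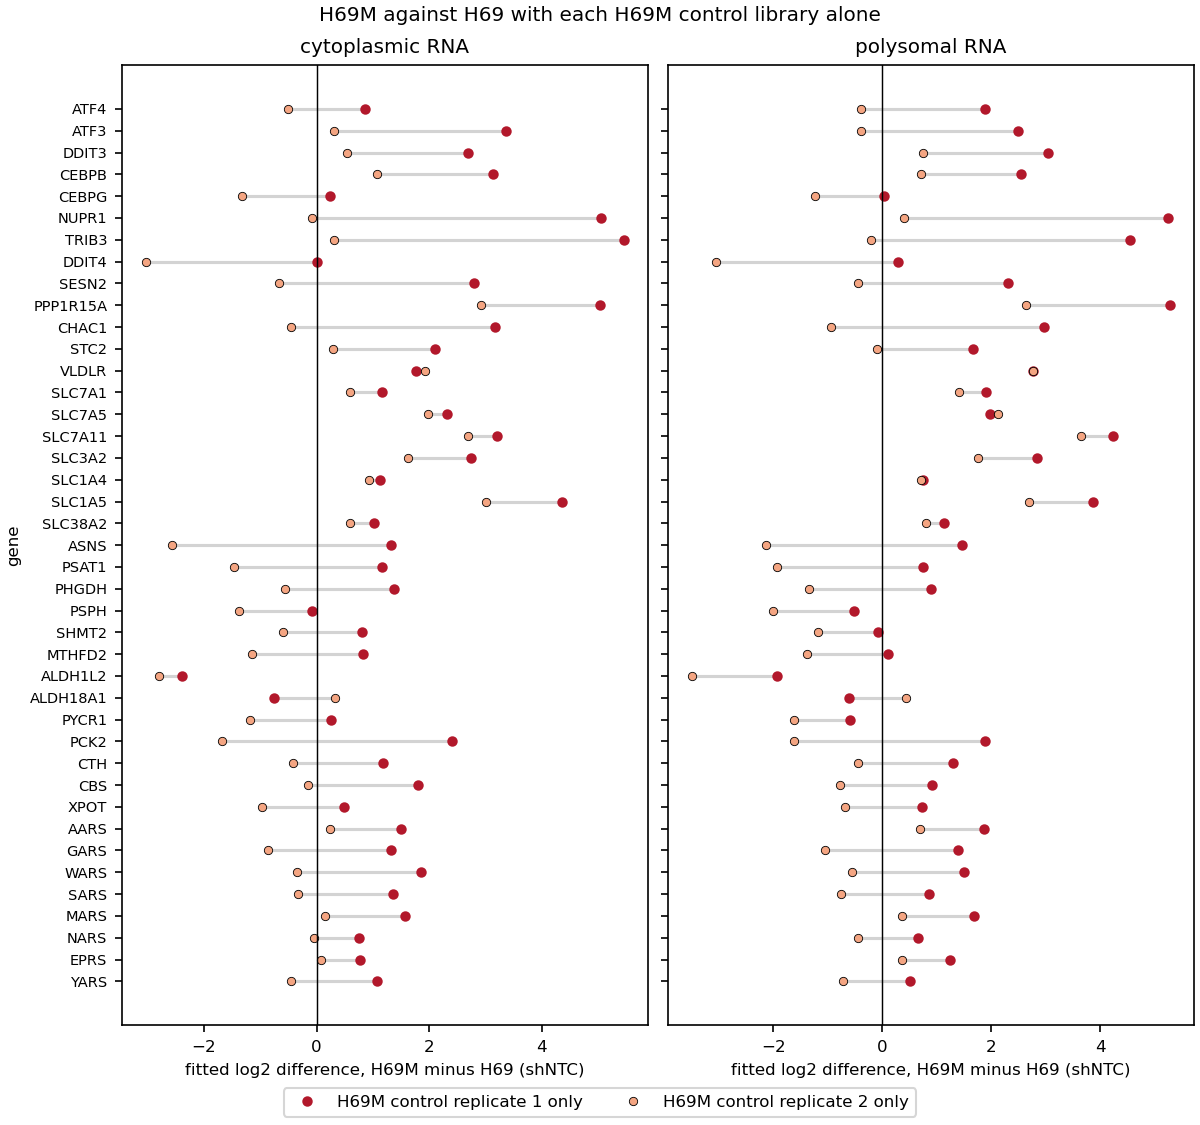
For each of the 41 genes, points give the fitted log2 difference between H69M and H69 controls when only H69M control replicate 1 (dark) or replicate 2 (light) is used, in cytoplasmic (left) and polysomal RNA (right). The transporter genes lie right of 0 with either control, while ASNS, PSAT1 and PCK2 lie on both sides.

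Neighbouring lists differed between the control lines in their own ways. Of 16 NRF2 targets 9 were higher in H69M in cytoplasmic RNA and 8 in polysomal RNA, and none lower, with a median log2 difference of 1.40 and 1.04. NQO1, a quinone reductase, had 298 and 340 CPM against 54.4 and 58.2 CPM in cytoplasmic RNA (log2 2.50, edgeR adjusted p = 3.31e-05). SLC7A11 is a known NRF2 target as well as an ATF4 target, so that list and the transporter group are not separate in their biology. Of the 15 genes of the kinases and eIF2 control, 3 were higher in cytoplasmic RNA, among them EIF2AK4, which encodes GCN2 (log2 1.11, edgeR adjusted p = 0.0108). In polysomal RNA 3 were higher and 4 lower. The 3 higher in either fraction were a share near that of all genes. Of 12 other cytosolic tRNA synthetases none passed in cytoplasmic RNA and 2, FARSA and FARSB, were lower in polysomal RNA.

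Per kilobase of exon, ATF4 was the highest of the members in the H69 cytoplasmic controls, at 92.4 CPM per kilobase, followed by NARS at 80.1 and PSAT1 at 69.1. In the H69M cytoplasmic controls the leading mean levels per kilobase were those of SLC7A5 at 150.2, SLC1A5 at 148, SLC3A2 at 141 and PPP1R15A at 137, with ATF4 at 116. In H69M after knockdown SLC1A5 led at 86.7, before SLC3A2 at 78.1 and ATF4 at 73.5. These means rest on 2 libraries each, and the H69M controls were far apart.

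Polysomal against cytoplasmic levels describe how much of an mRNA sat on polysomes relative to other mRNAs. In H69 controls the members' median log2 difference, polysomal minus cytoplasmic, was 0.77, where that of all genes was -0.14. In H69M controls it was 0.54 against 0. All genes include those at low counts. Over genes above 1 CPM in both fractions, the median ratio of polysomal to cytoplasmic CPM was 1.026 and 1.032 in H69 controls (replicates 1 and 2). It was 1.04 and 1.052 in H69M controls. Taken between H69M control libraries of the same number, the members' median was 0.51 (replicate 1) and 0.61 (replicate 2). Leaving out 1 library left the fractions with unequal control numbers. The members' median was then -0.63 without polysomal replicate 1 and 1.54 without cytoplasmic replicate 1. When libraries were scaled by total counts alone, the medians of the members were 0.42 and 0.28 and those of all genes -0.49 and -0.25. Synthesis genes were highest in H69, with a median of 1.07, charging and export genes had 0.80, and the regulators had -0.30. In H69, 28 members were higher in both polysomal libraries than in both cytoplasmic ones (23% of all genes) and 4 were lower: CEBPG, SLC7A11, SLC38A2 and ALDH1L2 (32.3%). In H69M 5 were higher, VLDLR, SLC7A1, SLC7A5, SLC3A2 and SLC1A4 (20.8% of all genes), and SLC38A2 was lower (27.6%).

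In H69 1 member passed in the loading comparison, SLC1A4, where 11.8% of all genes did (6.63% higher and 5.2% lower on polysomes). It had 73.3 and 75.7 CPM in polysomal RNA against 36.4 and 49.5 CPM in cytoplasmic RNA (log2 0.79, SE 0.226, edgeR adjusted p = 0.0384). That call was lost in 6 of 18 fits that left libraries out, each time without 1 cytoplasmic library of H69 or 1 polysomal library of H69 shNTC, with log2 values of 0.59 to 1.03 over the 18. Libraries of the other line enter the same fit and its shared estimate of spread. The count of members also moved with those libraries, and the part of the shared spread in this was not tested. Without both libraries of H69M shNTC replicate 1 it was 16, and without those of replicate 2 it was 18, where 12.2% and 12.1% of all genes passed. SHMT2, the mitochondrial serine hydroxymethyltransferase, had 775 and 512 CPM in polysomal RNA against 290 and 222 CPM (log2 1.33, SE 0.457), with edgeR adjusted p = 0.0786 over all libraries and 0.0161 without H69M control replicate 1. PHGDH, which starts serine synthesis, had 448 and 319 CPM against 129 and 123 CPM. With the block 10 members passed (18.9% of all genes), among them PHGDH, SHMT2, PYCR1, CBS, YARS and, as the 1 that was lower, SLC38A2. CBS has a near-identical copy, CBSL, counted separately at 34.5 and 40.9 CPM in the H69 cytoplasmic controls, so its counts are uncertain. In H69M controls no member passed (edgeR; 6 had an unadjusted p under 0.05; 4.7% of all genes passed, 2.16% as higher and 2.54% as lower), and with the block 3 did, DDIT4, ALDH18A1 and AARS (11.1%).

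ATF4 mRNA was not enriched on polysomes in most libraries. Its polysomal to cytoplasmic CPM ratio, taken between libraries of the same number, was 0.584 and 1.04 in H69 controls and 0.634 and 0.996 after knockdown. In H69M it was 1.63 and 0.888 in controls and 0.572 and 0.820 after knockdown. The median ratio over genes above 1 CPM was between 0.982 and 1.05 in these 8 pairs. The value of 1.63 belongs to control replicate 1, the pair with high levels of the other members. PPP1R15A, whose mRNA like that of ATF4 carries upstream open reading frames, had ratios of 1.63 and 1.15 in H69M controls and 1.01 and 1.23 after knockdown. CEBPG, a C/EBP family partner of ATF4, lay between 0.563 and 0.719 in all 8 pairs.

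The change of polysome loading with knockdown passed for no member in either line (edgeR; no member had an unadjusted p under 0.05; DESeq2 also called 0), and 0% of all genes passed in either. The median log2 change of the members was -0.04 in H69 and -0.07 in H69M, and both signs turned when single libraries were left out. Leaving out 1 sheIF6 polysomal library of H69 gave -0.21 (replicate 1) or 0.12 (replicate 2). In H69M it was -1.23 without the cytoplasmic and 0.84 without the polysomal library of shNTC replicate 1, and -0.72 without the polysomal library of shNTC replicate 2. Such fits leave the fractions with unequal replicate numbers. Between libraries of the same number, the members' median polysomal minus cytoplasmic value in H69 was 0.80 and 0.72 in controls. After knockdown it was 0.77 and 0.61. In H69M it was 0.51 and 0.61 in controls and 0.18 and 0.50 after knockdown. The knockdown value was the lower in each pair, which was not tested. In H69M the member of smallest p was ATF4, at -1.06 (SE 0.829, edgeR adjusted p = 1); it was -1.26 with control replicate 1 alone and -0.36 with replicate 2 alone. The difference of loading between the control lines likewise passed for no member (edgeR; 1 had an unadjusted p under 0.05; DESeq2 called 0; 0% of all genes passed). That member was VLDLR, at 0.94 (SE 0.323, edgeR adjusted p = 0.436).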

How the data were processed

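Raw counts per gene, deposited by the authors, were used as the table gives them; STAR, HTSeq and GRCh38 are named in the submitters' processing notes, and versions and the strand setting are not given in the sources used here. Antisense or near-identical genes can therefore share reads. Columns were matched to samples by their labels. Counts were fitted in R 4.3.3 with edgeR 4.0.16: filterByExpr (minimum count 10) left 23100 genes, TMM scaled them, and a robust quasi-likelihood fit held 8 group means (8 residual degrees of freedom). The Benjamini-Hochberg adjustment ran over the whole table of tested genes, with a limit of 0.05. Each SE is the absolute log2 change over the root of its F statistic, and per-library log2 CPM had 2 as prior count. The members, the lists and the naming rule (ATF4, then up to 8 called members of largest change, or the 6 of smallest p, and up to 4 genes of smallest p in each other list) were chosen with earlier results of these data known. Gene lengths came from GENCODE v29 and promoters from RefSeq.

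Alternatives were RLE and total-count scaling, no filter, a filter of 50 counts in 2 libraries, DESeq2 1.42.0, a replicate block within each line, and leaving out each library or both libraries of 1 H69M control number. The fit was tested on simulated data. The labels do not state pairing. The deviations of same-numbered libraries correlated within a line in each of its 6 group pairs, with r from 0.168 to 0.280 for H69 and from 0.172 to 0.578 for H69M, while across lines r ran from -0.107 to 0.0457. Replicates differed by 22.3 to 219 times the variance of counting (chi-square per degree of freedom), so the spread between 2 libraries limits precision, not depth.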

Additional observations from a re-analysis of the deposited data

How the results depend on the processing

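Groups of 2 libraries, of which 1 stood apart in the H69M controls, limit the statements on H69M. Of the 13 counts of members called, those for knockdown in H69 (both fractions), polysome loading change (both lines) and the loading difference between lines were 0 under each alternative run. With the replicate block the numbers called were 4 and 3 for knockdown in H69M (cytoplasmic, polysomal), 1 and 1 for its difference between lines, 20 and 21 for the line difference, and 10 and 3 for loading in H69 and H69M. With DESeq2 they were 4 and 5 for knockdown in H69M and 6 and 3 for loading. Total-count scaling gave 0 for cytoplasmic knockdown in H69M and 2 for H69 loading, and no filter gave 2 and 0. With the block the share of all genes passing for knockdown in H69M was 1.16% and 0.879%, against 0.156% and 0.0649% without it. For DESeq2, total-count scaling and no filter that share is not given here, so their counts are no result about the members. The cause of the differences between settings was not tested.

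When libraries were left out, the numbers ranged from 0 to 17 and 0 to 23 for knockdown in H69M, 0 to 7 and 0 to 7 for its difference between lines, 7 to 29 and 8 to 25 for the line difference, 0 to 18 for H69 loading and 0 to 1 for H69M loading. Except for H69M loading, the highest values came without H69M shNTC replicate 2. A fit that leaves 1 library in a group has no spread within it. Counts for comparisons with that group carry no measure of its variation.

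Signs turned for these log2 values when libraries were left out. Cytoplasmic knockdown in H69M ranged from -4.46 to 0.70 for TRIB3, -3.59 to 0.32 for ASNS, -3.82 to 0.28 for PCK2, -3.42 to 0.21 for CHAC1, -2.90 to 0.58 for SESN2, -2.64 to 0.44 for ATF3 and -0.78 to 1.16 for PHGDH (0.0571 with the block). Polysomal knockdown ranged from -4.49 to 0.27 for TRIB3 and -3.11 to 0.51 for ASNS. In the cytoplasmic line difference ASNS ranged from -2.59 to 1.32, PCK2 from -1.69 to 2.41, PSAT1 from -1.48 to 1.17 and MTHFD2 from -1.16 to 0.82. In the polysomal line difference ASNS ranged from -2.14 to 1.47, PCK2 from -1.61 to 1.89 and PSAT1 from -1.93 to 0.76 (0.0862 with the block). SLC38A2 after knockdown in polysomal RNA of H69 ranged from -1.24 to 0.11.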
